A study of Homo sapiens with 6 samples.

Results

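The genes described here were receptors of cytosolic and endosomal nucleic acids and the adaptors, kinase, transcription factors and effector kinase that act with them. They were chosen by symbol: DDX58, IFIH1, DHX58, TLR3, MAVS, TMEM173, TBK1, IRF3, IRF7 and EIF2AK2, 10 of the 58735 genes of the deposited table. The RNA-seq experiment asked what changes in the transcriptome when FUBP1, a single-strand DNA-binding protein known for regulating MYC transcription, is knocked down. Cells labelled MG63, an established human osteosarcoma line, received siRNA against FUBP1 (siFUBP1, n = 3 samples) or a control siRNA (siMock, n = 3 samples), and RNA was examined 48 h later. The labels give no other treatment in either group. No untransfected cells were among the samples, so siMock is not known to be an unstimulated baseline. A level raised in siMock by the transfection and a level lowered in siFUBP1 by the knockdown cannot be told apart. The labels did not name which FUBP1 siRNA was sequenced, and the control siRNA sequence was not given in the sources used here. The methods say in general that experiments were repeated independently, but no source used here states that the sequenced samples of a group were separate cultures, so the p-values measured only the spread between these samples, which may be technical.

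Double-stranded RNA in the cytosol is bound by the RNA helicases RIG-I and MDA5, which signal through the mitochondrial adaptor MAVS. Cytosolic DNA is bound by cGAS, whose cyclic dinucleotide product activates STING on the endoplasmic reticulum, and endosomal double-stranded RNA is bound by TLR3. These routes meet at the kinase TBK1, which phosphorylates IRF3 and IRF7, and these enter the nucleus to induce interferon beta and early antiviral genes. Many of the sensors are themselves interferon-stimulated genes, so their transcripts are usually present at a low level in unstimulated cells. Several cancer lines are known to have lost part of the STING or interferon pathway.

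The 6 libraries held 16309900 to 17484313 counts assigned to genes, and all 10 genes were among the 16116 genes that passed the filter on low counts and were tested. The siRNA target was examined first. FUBP1 was at 237, 255 and 274 CPM (read counts scaled to a common library size) in the siMock samples and at 44.3, 43.4 and 53.0 CPM in the siFUBP1 samples. The groups were far apart, and FUBP1 was at 18.4% of its siMock level after knockdown (log2 fold change −2.44, SE 0.0895, edgeR quasi-likelihood test, adjusted p = 1.90e-17). An exact two-sided permutation test of 3 against 3 samples gave p = 0.10, the smallest it allows.

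The cells were checked against markers of the labelled type. Of 12 osteosarcoma and osteoblast markers, 4 had enough reads to be tested. COL1A1, the alpha 1 chain of type I collagen, was at 113 ± 4.68 CPM (SD, n = 3) in siMock and at 45.5 ± 0.150 in siFUBP1. COL1A2, the partner chain of the same collagen, and the bone sialoprotein gene IBSP had 0 reads in all 6 libraries, the matrix gene SPARC had at most 5 and COL3A1 at most 2. The most abundant marker was VIM, encoding vimentin, at 149 and 194 CPM, and the summed level of the list was 374 to 380 CPM in siMock and 299 to 330 CPM in siFUBP1. The epithelial keratin genes KRT8, KRT18 and KRT7, which were looked up after these values were seen, were at 1989, 705 and 966 CPM in siMock and at 993, 446 and 731 CPM in siFUBP1, whereas the epithelial adhesion gene EPCAM was at 4.04 and 4.61 CPM. Several defining collagen and matrix markers of the labelled line were thus at or near 0 in both groups, and the identity of the cells was not tested. Of the 4 tested markers, COL1A1 and FN1, encoding fibronectin (−0.79), fell, while VIM and RUNX2 rose. RUNX2, the osteoblast transcription factor, had 8, 8 and 6 counts in siMock and 73, 97 and 39 in siFUBP1 (log2 fold change 3.15, adjusted p = 4.53e-08). The keratin genes were lower in siFUBP1, and the part of these genes in the results below was not tested. Of 15 leukocyte and dendritic cell markers, 5 were at 0 in all libraries, among them CD3E, CLEC4C and LILRA4, and the list summed to 12.0 to 14.8 CPM in the 6 libraries. Its most abundant gene, IL3RA, was at 5.74 CPM in siMock and 9.995 CPM in siFUBP1, while CSF1R, the receptor of a macrophage growth factor, went from 59, 70 and 39 counts to 7, 2 and 8 (log2 fold change −3.35, adjusted p = 4.30e-08).

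After FUBP1 knockdown 5 of the 10 genes changed: DDX58, TMEM173, IFIH1 and MAVS fell and TBK1 rose. The largest falls were those of DDX58 and TMEM173, to 39.8% and 46.1% of their siMock levels, and the rise of TBK1 was 1.38-fold. DHX58, TLR3, IRF3, IRF7 and EIF2AK2 did not pass the test. With samples scaled by their totals alone, 3 of the 10 genes were called, 2 of them lower, and 9819 of the 16116 tested genes. The count of 5 has to be read against a background in which 60.2% of all tested genes were called (adjusted p below 0.05), 30.1% higher and 30.1% lower, so 5 of 10 was not above it. When an absolute log2 fold change above 1 was required as well, 2 of the 10 genes passed, against 17.3% of the whole tested table. Over the 10 genes the log2 fold changes had a median of −0.22, and over the whole tested table one of 0.002. DDX58 and TMEM173 lay below the 10th percentile of all tested genes, which was −0.96, and the other 8 genes lay between it and the 90th percentile, 0.91. The groups of 3 samples did not overlap for the 5 called genes, as for 63.9% of all tested genes. In bulk RNA, fewer cells of a type and less RNA per cell cannot be told apart.

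**Figure D1:**
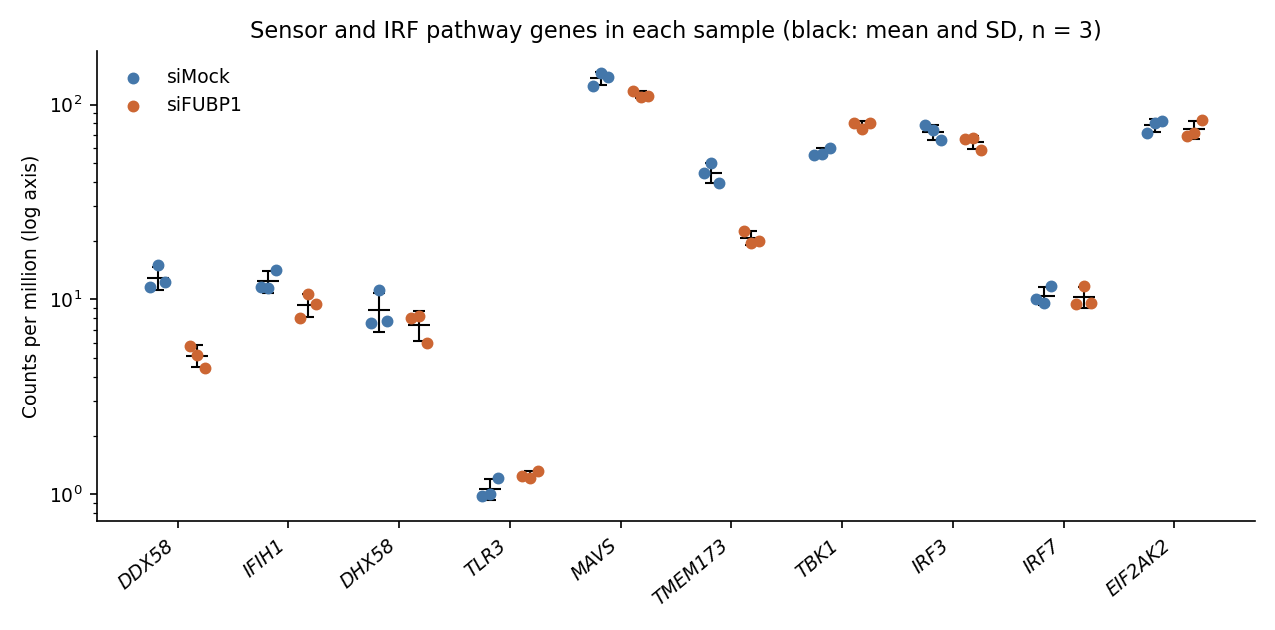
CPM of the 10 genes in each of the 3 siMock and 3 siFUBP1 samples on a log axis, with the mean and SD in black. The siFUBP1 samples lie below all siMock samples for DDX58, IFIH1, MAVS and TMEM173 and above them for TBK1, while the groups overlap for the other genes.

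The RNA helicase receptors came first in the pathway. DDX58 encodes RIG-I, the sensor of RNA with a 5′ triphosphate end. It lies on the minus strand of chromosome 9 (chr9:32455705-32526324, GRCh38) and its annotated exons merge into 18 blocks. Its raw counts were 189, 254 and 192 in siMock and 98, 90 and 78 in siFUBP1. Every siFUBP1 sample was below every siMock sample, and the nearest pair was 5.80 CPM in siFUBP1 and 11.6 CPM in siMock. The level went from 12.9 ± 1.77 to 5.15 ± 0.668 CPM (log2 fold change −1.33, SE 0.156, adjusted p = 4.58e-08).

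IFIH1 encodes MDA5, which binds long double-stranded RNA. It lies at chr2:162267079-162318703, also on the minus strand. Its counts were 188, 195 and 221 in siMock and 136, 185 and 166 in siFUBP1. The groups were separate but close, since the highest siFUBP1 sample had 10.7 CPM and the lowest siMock sample 11.5 CPM. The level was 12.4 ± 1.53 CPM in siMock and 9.41 ± 1.31 CPM in siFUBP1 (log2 fold change −0.39, SE 0.143, adjusted p = 0.0194). This call was lost without siMock replicate 3 (log2 fold change −0.29, adjusted p = 0.114), without siFUBP1 replicate 1 (−0.28, adjusted p = 0.138) and with DESeq2 (adjusted p = 0.0726).

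DHX58 encodes LGP2, the helicase without a signalling domain that modulates the other helicase receptors. Its counts were 124, 189 and 121 in siMock and 136, 143 and 104 in siFUBP1. The groups overlapped, and siMock replicate 2 stood above the other 5 samples. The level was 8.82 ± 1.99 and 7.42 ± 1.27 CPM (log2 fold change −0.25, SE 0.171, adjusted p = 0.208). Without siMock replicate 2 the log2 fold change was −0.0477. The gene lies at chr17:42101404-42112733 on the minus strand.

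TLR3, the endosomal receptor of double-stranded RNA, was the lowest of the 10 genes. It had 16, 17 and 19 counts in siMock and 21, 21 and 23 in siFUBP1. The counts did not overlap but the CPM values did, with siMock replicate 3 (1.22 CPM) above siFUBP1 replicate 2 (1.21 CPM). At this depth no difference was detectable (log2 fold change 0.24, SE 0.344, adjusted p = 0.570). The gene lies at chr4:186069152-186088069 on the plus strand, with 6724 exonic bases.

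The adaptors followed. MAVS, which relays signals of RIG-I and MDA5 from the outer mitochondrial membrane, had the most reads of the 10 genes. Its counts were 2042, 2476 and 2156 in siMock and 1994, 1888 and 1939 in siFUBP1. All siMock samples were above all siFUBP1 samples, by a small margin (125 against 118 CPM at the nearest). MAVS fell from 136 ± 10.4 to 113 ± 4.81 CPM (log2 fold change −0.27, SE 0.0786, adjusted p = 0.00382). This call was lost when samples were scaled by their totals alone (−0.18, adjusted p = 0.0510). MAVS lies at chr20:3846799-3876123 on the plus strand.

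TMEM173 encodes STING, the receptor of the cyclic dinucleotide made by cGAS, and lies at chr5:139475534-139482935 on the minus strand. Its counts were 728, 850 and 617 in siMock and 381, 336 and 348 in siFUBP1. The 3 siFUBP1 samples were close to each other and all far below the lowest siMock sample. TMEM173 fell from 44.7 ± 5.25 to 20.6 ± 1.70 CPM (log2 fold change −1.12, SE 0.103, adjusted p = 6.29e-10).

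TBK1, the kinase on which the MAVS, STING and TLR3 routes converge, was the only one of the 10 genes called higher. Its counts were 899, 951 and 939 in siMock and 1358, 1304 and 1412 in siFUBP1. The groups did not overlap, and the samples of each group lay close together. The level rose from 57.1 ± 2.70 to 78.8 ± 3.16 CPM (log2 fold change 0.47, SE 0.0808, adjusted p = 1.85e-05). The gene lies at chr12:64451880-64502108 on the plus strand, and 702 bases of its exons (14.7% of its length) are shared with AC135279.3 on the opposite strand, which had 0 to 2 reads per library.

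The transcription factors moved little. IRF3, the constitutive factor that TBK1 activates, had 1276, 1252 and 1025 counts in siMock and 1118, 1173 and 1021 in siFUBP1. The groups overlapped because siMock replicate 3 was the lowest of its group (65.6 CPM, against 78.2 and 73.7 CPM). The means were 72.5 ± 6.35 and 64.1 ± 4.92 CPM (log2 fold change −0.18, SE 0.0870, adjusted p = 0.0803), and the difference depended on the samples and the processing. It was −0.25 without siMock replicate 3 (adjusted p = 0.0181), −0.12 without siFUBP1 replicate 3 (adjusted p = 0.307) and −0.00948 with length and GC trends removed (adjusted p = 0.915). With a block for the replicate number the difference was −0.18 and passed (adjusted p = 0.0347). IRF3 lies at chr19:49659569-49665875 on the minus strand and shares 734 exonic bases (19.3% of its length) with BCL2L12 on the opposite strand. BCL2L12 had 531, 501 and 420 counts in siMock and 440, 474 and 378 in siFUBP1, and since the library kit named in the labels does not keep strand, reads of the shared stretch cannot be told apart.

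IRF7, the interferon-inducible partner of IRF3 (chr11:612553-615999, minus strand), had 165, 162 and 182 counts in siMock and 160, 204 and 168 in siFUBP1. The groups overlapped fully, and the highest and the lowest CPM values were both from siFUBP1. The means were 10.4 ± 1.10 and 10.3 ± 1.28 CPM (log2 fold change −0.02, SE 0.141, adjusted p = 0.918). The sign of this small value depended on the scaling.

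EIF2AK2 encodes PKR, the kinase that binds double-stranded RNA and phosphorylates the translation factor eIF2 alpha. It had 1168, 1369 and 1293 counts in siMock and 1169, 1237 and 1461 in siFUBP1. The groups overlapped, with siFUBP1 replicate 3 the highest and siFUBP1 replicate 1 the lowest of all 6 samples in CPM (83.7 and 69.2). The means were 78.3 ± 5.95 and 74.7 ± 7.82 CPM (log2 fold change −0.07, SE 0.0874, adjusted p = 0.528), and the log2 fold change ranged from −0.16 to −0.00379 when 1 sample was left out. It was −0.17 with length and GC trends removed, which passed (adjusted p = 0.0287), and 0.0296 with samples scaled by their totals alone (adjusted p = 0.789). The gene lies at chr2:37099210-37157065 on the minus strand, and it has 10753 exonic bases. AC007899.1, on the opposite strand, takes up 401 of them and GPATCH11 35.

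**Figure D2:**
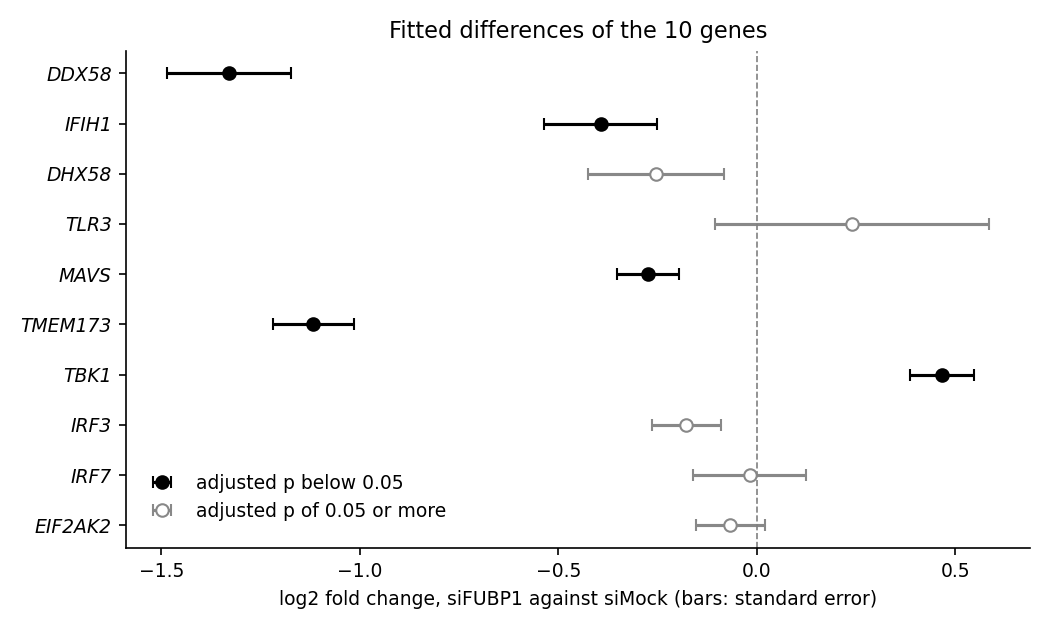
Fitted log2 fold change of the 10 genes, siFUBP1 against siMock, with its standard error (n = 3 samples per group). DDX58 (−1.33) and TMEM173 (−1.12) lie far to the left, TBK1 (0.47) lies to the right, and the open symbols did not pass an adjusted p of 0.05.

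Levels of different genes were compared in FPKM, the deposited unit that divides out gene length as well as library size. That length counts all annotated exons merged, from 2628 bases for IRF7 to 11771 for MAVS. It need not equal the length of the expressed transcript, so the order of different genes depends on the annotation. In the siMock samples IRF3 was the highest of the 10 genes at 18.9 ± 1.68 FPKM, above 83.9% of all tested genes. TBK1, TMEM173 and MAVS followed at 11.8, 11.5 and 11.4 FPKM, and their samples overlapped. EIF2AK2 came next at 7.20 FPKM and IRF7 at 3.92. The helicase genes DDX58, IFIH1 and DHX58 lay at 2.94, 2.40 and 2.27 FPKM and their neighbours in this order overlapped. TLR3 was at 0.157 ± 0.0189 FPKM, above 2.53% of tested genes.

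In the siFUBP1 samples the order changed. IRF3 and TBK1 shared the top at 16.8 and 16.4 FPKM, and their samples overlapped, which they did not in siMock. MAVS (9.51 FPKM) and EIF2AK2 (6.91 FPKM) followed, and TMEM173 at 5.32 FPKM now stood below EIF2AK2. Among the helicases DDX58 was now the lowest at 1.18 ± 0.153 FPKM, with no overlap with IFIH1 (1.83 FPKM) or DHX58 (1.92 FPKM), while the latter overlapped each other. TLR3 stayed last at 0.186 FPKM.

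**Figure D3:**
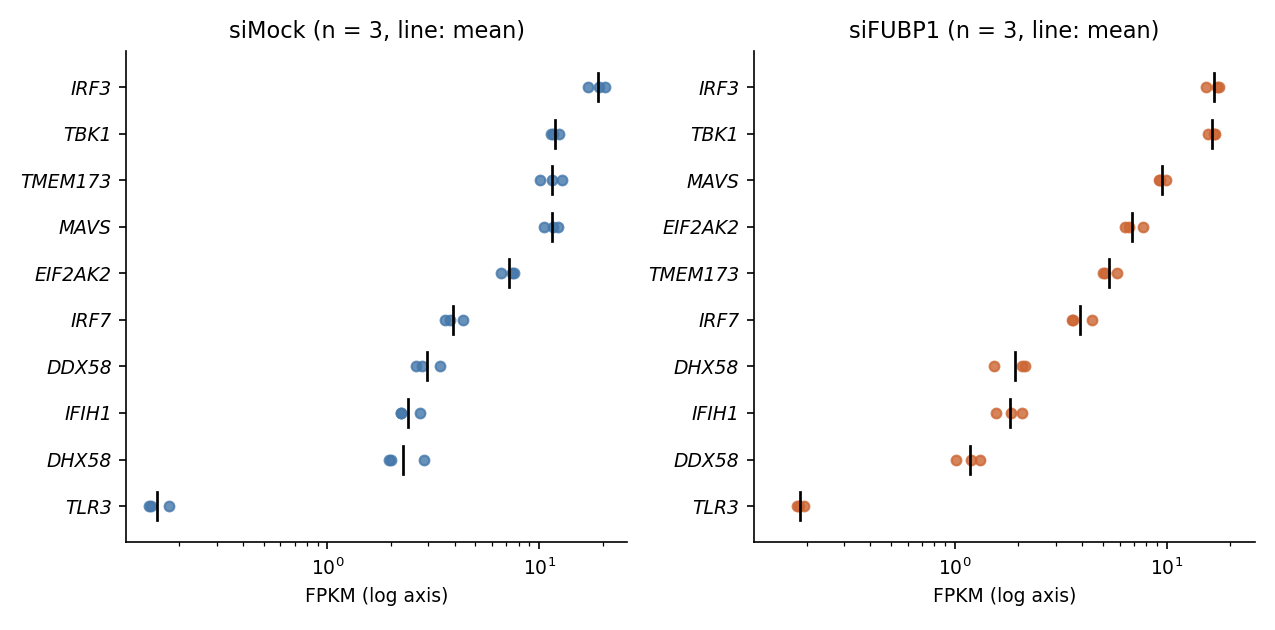
FPKM of the 10 genes on a log axis in siMock and siFUBP1, ordered by the group mean (line), with 1 point per sample (n = 3). TMEM173 lies level with TBK1 and MAVS in siMock and below EIF2AK2 in siFUBP1, and DDX58 moves from the top of the helicase genes to their lowest place.

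The balance between members was read as FPKM ratios within each sample. The ratio of DDX58 to DHX58 was 1.35, 1.19 and 1.40 in siMock and 0.636, 0.556 and 0.662 in siFUBP1. DDX58 was thus above DHX58 in FPKM in every siMock sample and in no siFUBP1 sample. The ratio of DDX58 to IFIH1 went from 1.24 ± 0.260 to 0.656 ± 0.165, again without overlap, whereas the ratio of IFIH1 to DHX58 overlapped between the groups (1.10 ± 0.301 and 0.976 ± 0.224). The summed FPKM of the 3 helicases was 7.60 ± 0.847 in siMock and 4.93 ± 0.507 in siFUBP1, and the share of DDX58 in the sum was 38.6% and 23.9%. The ratio of TBK1 to TMEM173 was 0.998, 0.905 and 1.23 in siMock and 2.88, 3.14 and 3.28 in siFUBP1. The FPKM values of TBK1 and TMEM173 were thus near each other in the siMock samples, and that of TBK1 was about 3-fold higher in the siFUBP1 samples. The level of such a ratio depends on the annotated lengths, while its change between the groups does not. IKBKE encodes IKK epsilon, the kinase most closely related to TBK1, and its ratio to TBK1 fell from 0.445 ± 0.0614 to 0.199 ± 0.00954. The ratio of IRF3 to IRF7 overlapped between the groups at 4.87 ± 0.839 and 4.34 ± 0.444.

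**Figure D4:**
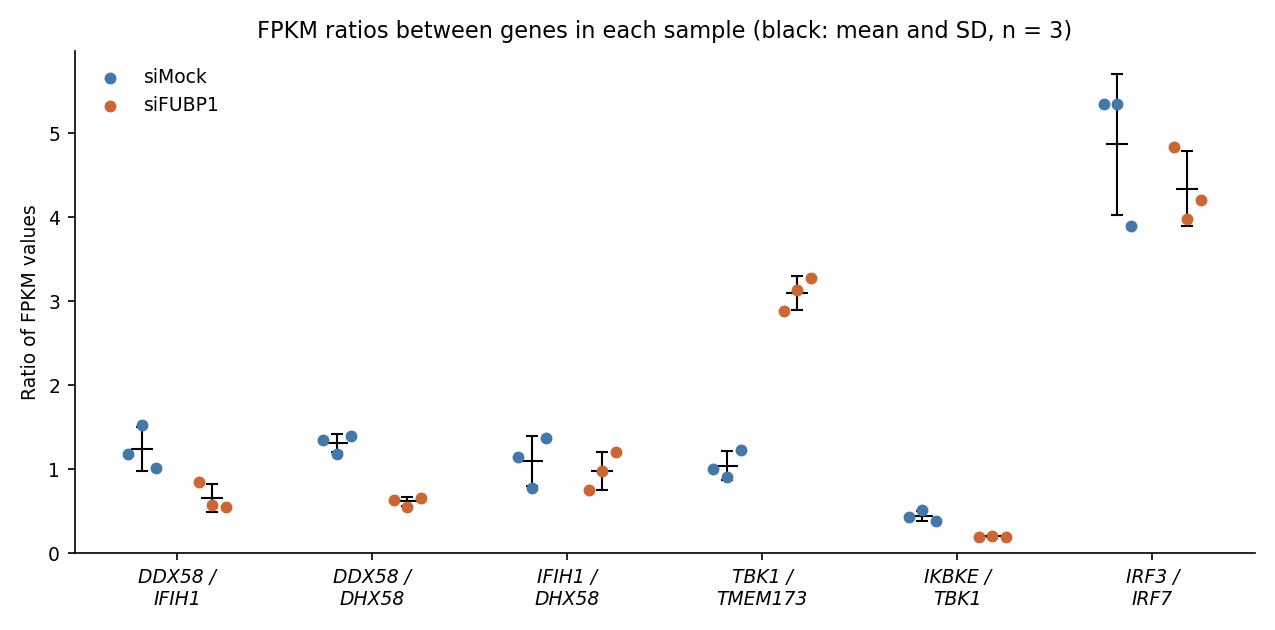
FPKM ratios between gene pairs in each of the 3 siMock and 3 siFUBP1 samples, with the mean and SD in black and the axis starting at 0. The ratio of TBK1 to TMEM173 is 0.905 to 1.23 in siMock and 2.88 to 3.28 in siFUBP1, and both ratios with DDX58 as numerator are lower in siFUBP1 without overlap.

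The promoters of the genes were examined because several of the 10 genes are known as interferon-inducible. RefSeq promoter sequences (GRCh38.p14, 250 bases before to 50 bases after the start) were matched for 6 of the 10 genes, DDX58, IFIH1, TLR3, MAVS, TBK1 and EIF2AK2. The RefSeq start can lie inside the gene bounds given above. For TBK1 the window begins at base 64451870 and the annotated gene at 64451880, so most of the window is inside the gene. The letters AANNGAAA, the core that IRF proteins bind, were sought on both strands, and so was the longer core of the interferon-stimulated response element, which repeats its GAAA and can overlap it. Capitals mark the stretches that match AANNGAAA on either strand. The promoters shown are those of a gene that fell strongly (DDX58, chr9:32526147-32526446, minus strand), one that fell little (IFIH1, chr2:162318635-162318934, minus strand), one that did not pass the test (EIF2AK2, chr2:37156931-37157230, minus strand) and the one that rose (TBK1, chr12:64451870-64452169, plus strand).
DDX58: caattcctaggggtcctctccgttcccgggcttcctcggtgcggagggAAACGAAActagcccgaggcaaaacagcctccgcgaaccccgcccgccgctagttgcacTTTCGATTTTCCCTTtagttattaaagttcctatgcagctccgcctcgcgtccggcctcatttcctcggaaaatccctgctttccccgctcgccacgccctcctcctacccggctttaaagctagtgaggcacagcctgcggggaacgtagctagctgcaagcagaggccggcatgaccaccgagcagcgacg
IFIH1: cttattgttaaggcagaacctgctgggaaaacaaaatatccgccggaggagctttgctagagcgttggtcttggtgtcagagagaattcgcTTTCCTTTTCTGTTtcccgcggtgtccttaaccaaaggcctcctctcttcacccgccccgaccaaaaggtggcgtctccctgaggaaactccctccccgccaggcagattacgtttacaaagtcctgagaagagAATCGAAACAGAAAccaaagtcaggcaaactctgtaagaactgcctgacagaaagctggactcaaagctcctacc
EIF2AK2: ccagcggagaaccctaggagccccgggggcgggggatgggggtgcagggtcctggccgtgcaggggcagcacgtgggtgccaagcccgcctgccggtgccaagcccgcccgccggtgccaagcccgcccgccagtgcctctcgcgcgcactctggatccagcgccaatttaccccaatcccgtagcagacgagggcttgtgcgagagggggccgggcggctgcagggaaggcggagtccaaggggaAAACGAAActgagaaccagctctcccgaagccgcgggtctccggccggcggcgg
TBK1: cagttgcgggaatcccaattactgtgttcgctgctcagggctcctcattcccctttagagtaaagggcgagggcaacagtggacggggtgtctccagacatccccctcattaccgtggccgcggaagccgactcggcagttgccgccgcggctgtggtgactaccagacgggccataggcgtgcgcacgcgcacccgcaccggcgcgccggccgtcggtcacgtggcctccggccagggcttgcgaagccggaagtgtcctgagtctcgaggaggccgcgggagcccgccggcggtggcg

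The promoter of DDX58 held 3 matches to AANNGAAA, at bases −202 to −195, −143 to −136 and −136 to −129 from the start, the last pair on the opposite strand and sharing a base. The promoter of IFIH1 held 4 matches in overlapping pairs, at −159 to −146 on the opposite strand and at −25 to −12 on its own strand. EIF2AK2 had 1 match across its start (−4 to 4), TLR3 had 1, and TBK1 and MAVS had 0. Of all 35116 promoters of this length, 22.8% held the shorter motif and 3.57% the longer one. The longer motif was found 3 times in IFIH1, 1 time each in TLR3 and EIF2AK2 and not in DDX58, MAVS or TBK1. A match is a description of these letters and not a binding site.

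Transfected siRNAs can also act on other transcripts through the seed of their guide strand, so the 10 genes were searched for the seeds of the 3 FUBP1 siRNAs the study designed. The guide strands are given 5′ to 3′ with the seed, bases 2 to 8, in capitals and the DNA overhang at the end.
RNAi#1: uAAACUGAaugcgaacacctt
RNAi#2: uAAGAGGUuugucagcacctt
RNAi#3: uUUCUUCUaugaguugccgtt

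No transcript of the 10 genes held the complete 19-base target of a guide. In the annotated 3′ untranslated regions, 1 transcript per gene, DDX58 (1417 bases) and TBK1 (727 bases) each held 1 site matching the seed of RNAi#3. MAVS, with 9963 bases, held 1 site each for RNAi#1 and RNAi#2, and EIF2AK2, with 8063 bases, held 1 for RNAi#2 and 2 for RNAi#3. The other 6 genes held 0. Most of their regions were short: 17 bases for IRF3, 90 for IRF7, 121 for IFIH1, 297 for TMEM173 and 357 for DHX58. TLR3 had 3196 bases, and the median over tested genes was 970. A count of 0 in a short region of 1 transcript says little about longer transcripts of the gene. Over 12443 tested genes with such a region, 19.9%, 12.2% and 19.4% held a site for RNAi#1, RNAi#2 and RNAi#3. Whether seed pairing played a part in any of these differences was not tested.

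The rest of the pathway was described with 7 lists holding 197 other genes, each counted once although some stood on several lists, of which 155 were tested. Of these, 44 were called higher, 68 lower and 43 did not pass, which is 72.3% called against 60.2% in the background, with a median log2 fold change of −0.06. Among 18 other nucleic acid sensors tested, 6 rose and 9 fell, which is 83.3% called against 60.2% of all tested genes. OASL stood both on this list and on that of IRF3 and interferon targets below. The falls included DDX60, a helicase that assists RIG-I (log2 fold change −1.53), OASL, which enhances RIG-I signalling (−2.24), and IFIT1, which binds RNA lacking cap methylation (−1.29). The rises included IFI16, a sensor of nuclear and cytosolic DNA (1.47, from 27.4 ± 2.12 to 75.9 ± 2.10 CPM), and DDX21, an abundant nucleolar helicase (from 456 ± 44.3 to 1019 ± 56.3 CPM). CGAS, the enzyme upstream of STING, rose modestly from 24.6 ± 3.30 to 30.4 ± 3.66 CPM (0.31, adjusted p = 0.0185). This call was lost without siMock replicate 3 (0.20, adjusted p = 0.137), without siFUBP1 replicate 3 (0.22, adjusted p = 0.122) and with length and GC trends removed (0.17, adjusted p = 0.173). TLR7, TLR8 and TLR9 had 0 reads in all 6 libraries, and a count of 0 allows up to 0.172 to 0.192 CPM per library, for counting error only. ADAR, which edits double-stranded RNA and limits its sensing by MDA5 and PKR, fell from 478 ± 30.5 to 250.5 ± 15.2 CPM (−0.93).

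Of 23 adaptors and kinases that lead to IRF3, 4 rose, 9 fell and 10 did not pass, which is 56.5% called against 60.2% of all tested genes. MYD88, the adaptor of most Toll-like receptors, RIPK1, a kinase that acts with adaptors and death receptors, and FADD, a death-domain adaptor, fell by 1.83, 1.82 and 1.53 on the log2 scale. IKBKE fell from 20.1 ± 2.25 to 12.5 ± 0.140 CPM (−0.69) and TICAM1, the adaptor TRIF of TLR3, from 27.8 ± 1.79 to 21.9 ± 1.91 CPM (−0.34), a call lost with length and GC trends removed (−0.12, adjusted p = 0.258). TRAF3 and TANK, which link MAVS to TBK1, rose with TBK1, by 0.42 and 0.44, and CASP8 rose by 0.91.

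Of 52 regulators of RIG-I, MAVS and STING, 14 rose and 20 fell, which is 65.4% called and near the 60.2% of the background. The lowest values were those of YWHAH (−2.07), a 14-3-3 protein that carries MDA5 to mitochondria, TRIM31 (−1.58), a ubiquitin ligase of MAVS, and ZC3HAV1 (−1.57), the zinc-finger antiviral protein that also promotes RIG-I signalling. The highest was that of MFN1 (1.03), a mitochondrial fusion protein that binds MAVS. Of the RIG-I ubiquitin ligases, TRIM25 did not pass and was at 162 ± 3.18 and 164 ± 12.6 CPM (adjusted p = 0.888). RNF135, at 12.9 ± 1.22 and 15.7 ± 1.65 CPM (0.28, adjusted p = 0.0522), lay at the threshold and passed as higher in 7 of 17 alternative fits, for example without siMock replicate 1 (0.36, adjusted p = 0.0286). In the IRF family beside IRF3 and IRF7, 7 of 10 genes were tested and 2 passed, both lower: IRF1, an inducible activator of antiviral genes, fell from 28.4 ± 3.81 to 12.2 ± 1.17 CPM (−1.22), and IRF5 from 4.98 ± 0.992 to 2.43 ± 0.603 CPM (−1.04). IRF2 (0.03, adjusted p = 0.844) and IRF9 (−0.25, adjusted p = 0.395) did not pass.

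Of 27 interferon and interferon receptor genes, 17 had no reads in any library, among them IFNB1, the first target of IRF3 and IRF7. Of the 7 tested, 2 rose and 4 fell, against a background of 60.2% called. IFNE, encoding interferon epsilon and the only interferon gene with enough reads to test, rose from 7, 12 and 2 counts in siMock to 23, 35 and 42 in siFUBP1 (2.16, adjusted p = 0.000122). Its counts are low, and the log2 fold change was 2.75 without siMock replicate 2 and 1.74 without siMock replicate 3, with the call kept. The type I receptor chains fell, IFNAR2 from 4.34 ± 0.305 to 1.54 ± 0.353 CPM (−1.48) and IFNAR1 from 76.2 ± 0.431 to 65.8 ± 5.16 CPM (−0.21, adjusted p = 0.0274). The IFNAR1 call was lost without siFUBP1 replicate 2 (−0.14, adjusted p = 0.184), without siMock replicate 2 (−0.21, adjusted p = 0.0709) and with samples scaled by their totals alone (−0.12, adjusted p = 0.222). Of 30 tested targets of IRF3 and interferon, 23 fell, 4 rose and 3 did not pass, with a median of −0.79, against 60.2% of all tested genes called and 30.1% called lower. Of the 30 targets, 13 fell below −1, where 17.3% of all tested genes passed an absolute value of 1 in either direction. Replicate 2 was the highest siMock sample for 21 of the 30 targets, and without it 21 fell, 4 rose and the median was −0.73. ISG15, a ubiquitin-like antiviral modifier, fell from 242 ± 34.1 to 70.1 ± 4.07 CPM (−1.79). CXCL10, a chemokine induced directly by IRF3, had 1 read over all 6 libraries. BST2 and SP100 were among the 4 that rose (0.63 and 0.96).

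Around EIF2AK2, 15 of 26 other genes of its axis rose and 7 fell, with a median of 0.25, which is 84.6% called against 60.2% in the background. The 3 other kinases of eIF2 alpha rose, EIF2AK1 by 0.31, EIF2AK3 by 0.41 and EIF2AK4 by 0.48, and PRKRA, the PKR activator PACT, rose by 0.36, a call lost with length and GC trends removed (0.15, adjusted p = 0.187). Downstream of the kinases, DDIT3 rose by 3.09, PPP1R15A by 2.57 and ATF4 by 1.19, while EIF2AK2 itself did not pass the test. Among the 7 that fell, the lowest values were those of ADAR (−0.93), EIF2B5 (−0.54) and PPP1CA (−0.50).

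**Figure D5:**
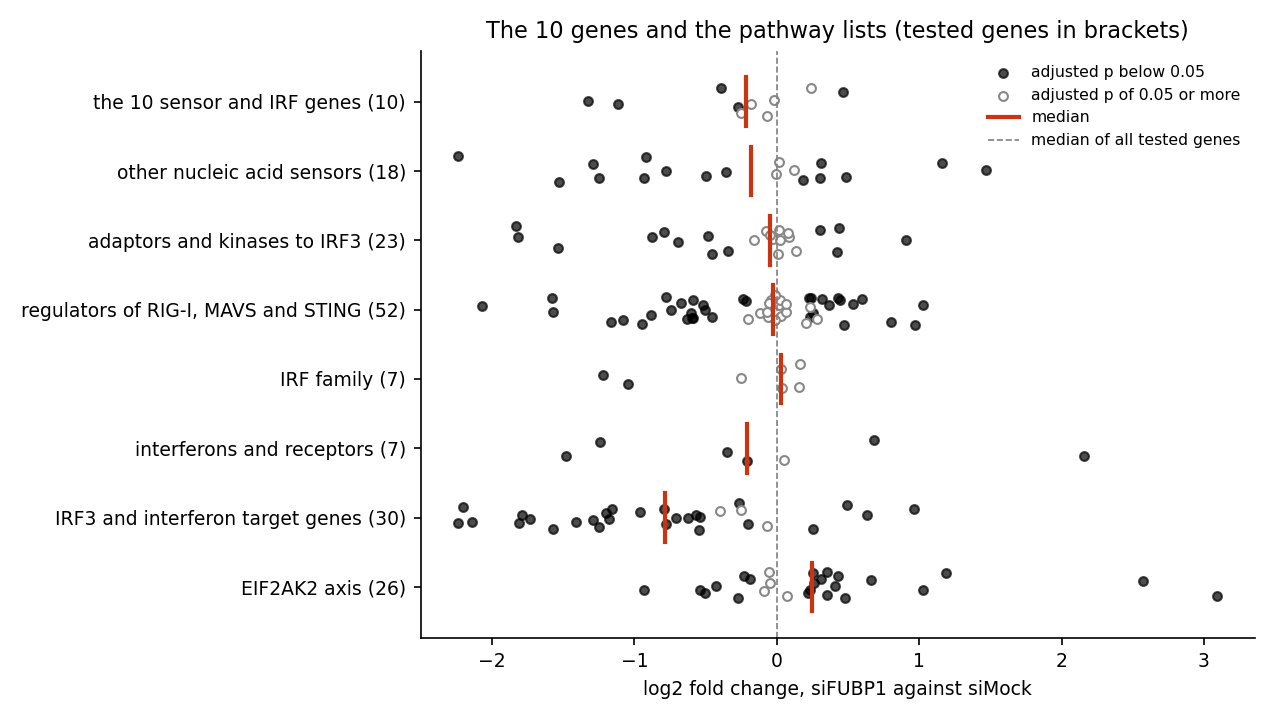
Log2 fold change of every tested gene of the 10 and of each pathway list, siFUBP1 against siMock, with the list median in red and the median of all tested genes as a dashed line. Filled points passed an adjusted p of 0.05, and the list of IRF3 and interferon targets, with a median of −0.79, lies farthest to the left.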

How the data were processed

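RNA-seq of 6 samples was analysed, 3 siMock and 3 siFUBP1, grouped by their titles. The authors deposited one table with raw read counts and FPKM values for 58735 genes, whose identifiers, positions and exon lengths all equal those of GENCODE 29 (GRCh38). Per the labels, poly(A) RNA libraries were processed with HISAT2 2.0.5, StringTie 1.3.3b, featureCounts 1.5.0-p3 and DESeq2 1.16.1. Further columns that the authors deposited, the normalized signal of each group and the log2 fold change, p-value and adjusted p-value of their own comparison, were not used.

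Counts were tested with edgeR 4.0.16 in R 4.3.3 (TMM factors, filterByExpr, robust quasi-likelihood fit), with Benjamini-Hochberg adjustment over the 16116 tested genes and a call at adjusted p below 0.05. CPM values used TMM-scaled library sizes, errors are SDs over 3 samples, and SE is the log2 fold change divided by the root of the F statistic. Library totals of 16309900 to 17484313 counts set the precision, and a count of 0 allows 3 counts. The fit was tested on simulated data. The members and lists were chosen with earlier results of these data known. Named genes were the 10 members, FUBP1, a fixed set of pathway genes, and the 3 highest and 3 lowest calls of each list, where the groups were separate and the mean count reached 50. EPCAM, the keratin genes, COL1A2, IBSP, SPARC, COL3A1, RUNX2, IFNE, CSF1R, CD3E, CLEC4C and LILRA4 were named after their values were seen. Alternatives were RLE, upper-quartile and total scaling, DESeq2 1.42.0, other filters, limma 3.58.1 on log2(FPKM + 1) and log2(FPKM + 0.1), removal of length and GC trends (loess, span 0.3), a replicate block and leaving out each sample. The numbers of siMock and siFUBP1 samples matched, and the correlation of same-numbered samples' deviations was 0.0282, 0.0478 and 0.238, so the numbers were not taken to pair the samples.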

Additional observations from a re-analysis of the deposited data

How the results depend on the processing

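DDX58, TMEM173, TBK1 and FUBP1 kept their direction and their call at adjusted p below 0.05 in all 17 alternative fits run. With an absolute log2 fold change above 1 also required, 2787 of the 16116 tested genes were called, which is 17.3%. The same rule called 2 of the 10 members and 34 of the 155 tested pathway genes. With library totals alone, 3 members were called, 2 of them lower, IFIH1 was at -0.30 (adjusted p = 0.0800), MAVS at -0.18 (adjusted p = 0.0510), IRF7 at 0.0799 and EIF2AK2 at 0.0296. This scaling moved the median of all tested genes to 0.099. IFIH1 was also not called with DESeq2 (-0.39, adjusted p = 0.0726) or with limma on log2(FPKM + 1) (-0.26, adjusted p = 0.0554) and log2(FPKM + 0.1) (-0.37, adjusted p = 0.0564). The cause of these changes was not tested. IRF3 passed at -0.21 with the length trend removed (adjusted p = 0.0308), but was at -0.00948 (adjusted p = 0.915) with length and GC trends removed. Under that setting EIF2AK2 passed at -0.17 (adjusted p = 0.0287) and IRF7 was at 0.28 (adjusted p = 0.0976), and IRF7 was at 0.0235 with upper-quartile factors. Leaving out 1 sample at a time gave ranges of -0.49 to -0.28 for IFIH1, of -0.36 to -0.0477 for DHX58, of -0.16 to -0.00379 for EIF2AK2, of -0.25 to -0.12 for IRF3, of -0.12 to 0.0619 for IRF7, of -0.0116 to 0.12 for IRF2 and of -0.0452 to 0.0530 for TRIM25. IRF2 turned to -0.0144 with the length trend removed and to -0.0995 with both trends removed. Of the other pathway genes named, IFNAR1 lost its call in 6 of 17 alternative fits, CGAS in 5 and TICAM1 and PRKRA in 1 each, and RNF135 gained one in 7. TLR3 was not tested where a mean of at least 50 counts was required.

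The replicate block, fitted although the numbers share no stated source, called 10014 genes and changed 1 member's call, that of IRF3 (-0.18, adjusted p = 0.0347). Not every sample correlated best with its own number. Depth limits TLR3, with at most 23 counts in a library.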
